A study of Mus musculus with 58 samples.

Results

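The comparison described here is the effect of a mutated SPEN SPOC domain on day 3 of neural precursor cell (NPC) differentiation, in a mouse line with untriggered degrons on both PCGF3 and PCGF5. Its members were taken from the sample titles: 4 of the 58 chromatin RNA-seq libraries of the series. Counts per allele could be read because the female embryonic stem cells came from a cross of 129/Sv (Dom, for domesticus) with CAST/EiJ mice (Cast, for castaneus), with a doxycycline-inducible promoter in front of Xist on the Dom X. The control group, PCGF35 below, comprised 2 cultures of 1 line with FKBP12 degrons on PCGF3 and PCGF5 and unmutated SPEN. The mutant group, PCGF35_SPOC below, comprised 1 culture each of clones F10 and F6, which were derived from that line and carry arginine-to-alanine changes in the SPOC domain. According to the paper, F6 held a sub-population of XO cells (with a single X) and was sub-cloned before its chromatin RNA-seq. All 4 cultures received doxycycline at 1 ug/mL for 3 days and no dTAG-13, the compound that triggers the degron. Each clone is a separate line, whereas the control cultures are repeats of 1 line, so the spread in the control group holds no variation between clones.

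Xist RNA coats the X chromosome it is made from and recruits SPEN, whose C-terminal SPOC domain binds the NCoR and SMRT corepressors that activate the histone deacetylase HDAC3. Xist also brings in Polycomb complexes, which start on the inactive X with PRC1 complexes that contain PCGF3 or PCGF5 and which mark histones H2A and H3. The degron was not triggered in any of the 4 cultures, and the comparison asks how far the Dom X is silenced in differentiating cells when the SPOC contact is mutated.

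Chromatin-associated RNA was measured, so unspliced transcripts were counted over introns and exons. The 4 libraries held 11.6 M to 16.4 M counted fragments, of which 46.1% to 48.4% could be assigned to an allele. The Dom share of a gene is its Dom fragments over its Dom plus Cast fragments: 0.5 is equal output of both X copies and 0 a silent Dom copy. It was read for the 246 X-linked genes of the deposited allelic table, all of them on the side of Xist nearer the start of the chromosome. The median gene had 149 to 170 allelic fragments in a library, and 175 genes had at least 50 in each of the 4.

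The engineered and inducible genes were read in total RNA. Xist stood at 7086 and 8345 fragments per 1000000 counted (CPM) in PCGF35 and lower in the clones, at 5774 CPM in F10 and 4471 CPM in F6, a log2 change of -0.62 ± 0.24 (SE, adjusted p = 0.853, edgeR over all 15180 genes tested). In the parental line, which has no degrons, it was 5142 and 4650 CPM with unmutated SPEN (WT) and 3975 and 3788 CPM in clones D9 and H1 with the SPOC mutation (SPOC). What part the Xist level has in the Dom shares was not tested. Counts per gene cannot show the point changes in Spen, but its RNA level can be read: it was 158 and 155 CPM in PCGF35, 324 CPM in F10 and 573 CPM in F6. The log2 difference of 1.50 ± 0.31 missed the threshold in edgeR (adjusted p = 0.473) and passed in DESeq2 (adjusted p = 0.00338). Spen was likewise 351 and 360 CPM in the clones on ES d0 against 137 and 71.4 CPM in PCGF35, and on NPC d3 of the parental line 440 and 484 CPM in SPOC against 161 and 122 CPM in WT. Pcgf3 ranged from 80.5 to 86.3 CPM and Pcgf5 from 28.6 to 44.9 CPM over the 4 libraries.

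Clone F10 stood apart from the other 3 libraries in its Cast RNA, summed over the 246 genes (3687 CPM against 5037 to 5386 CPM), and results on shares are therefore also given without it. Before induction the Dom and Cast copies were equally active in both lines. On day 0 of doxycycline in embryonic stem cells (ES d0), the median Dom share was 0.509 and 0.511 in the cultures of PCGF35, 0.516 in clone F10 and 0.514 in clone F6. On NPC day 3 the control cultures had median shares of 0.184 and 0.190, and the mutant clones 0.442 (F10) and 0.462 (F6). The groups did not overlap. The difference of the group means was 0.265, against standard deviations of 0.00417 in PCGF35 and 0.0137 in PCGF35_SPOC (n = 2 each). An exact two-sided permutation test gave p = 0.333, which is the smallest value that 2 against 2 libraries allow. The difference was 0.255 for F10 alone and 0.275 for F6 alone.

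**Figure D1:**
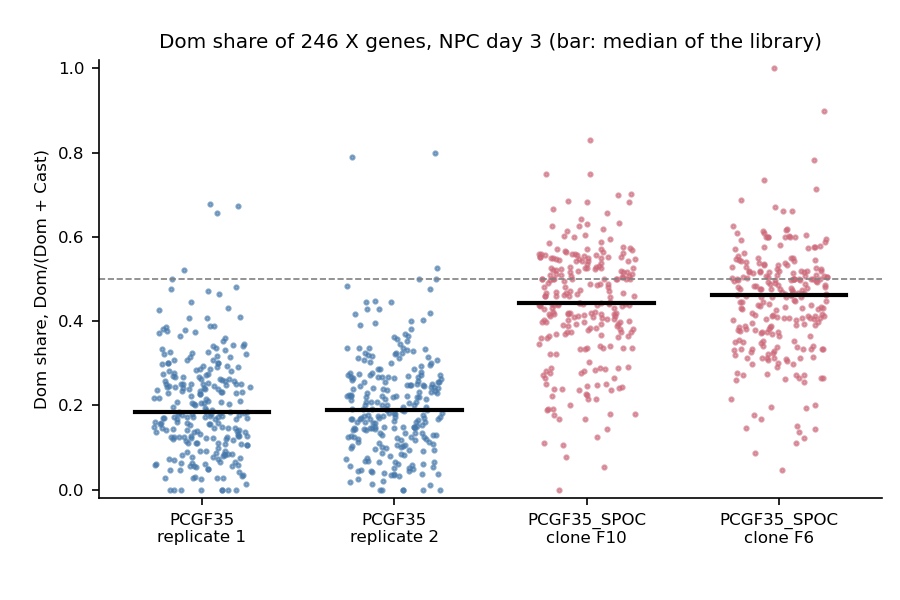
Dom share (vertical axis, from 0 to 1) of each of 246 X-linked genes in the 4 NPC day 3 libraries; each point is a gene, the black bar is the median of the library and the dashed line marks 0.5. The medians were 0.184 and 0.190 in PCGF35 and 0.442 and 0.462 in the clones.

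The whole distribution of genes was displaced. Shares under 0.3 were found for 198 and 200 of the 246 genes in the control cultures, but for 44 genes in F10 and 28 in F6. Near-equal output, a share from 0.4 to 0.6, was measured for 12 and 14 genes in PCGF35, for 144 in F10 and for 148 in F6. Fewer genes were near equality than on ES d0, when 195 and 197 genes of the same clones lay in that range.

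Gene by gene, 211 of the 246 genes (85.8%) had a higher Dom share in PCGF35_SPOC and 0 a lower one (edgeR quasi-likelihood test on allele counts, adjusted p under 0.05, Benjamini-Hochberg over 246 genes). The share rose by between 0.0748 and 0.500 in the called genes, with a median of 0.250. The shares of the libraries did not overlap between the groups, with both clones higher, for 227 genes (92.3%), and with both clones lower for 1 gene (0.407%), Slc25a5. Of the 35 genes that did not pass the test, 27 had fewer than 50 allelic fragments in at least 1 library, and 31 had a fitted change above 0. Allelic differences that existed before induction were removed by comparing the change from ES d0 to NPC d3 between the lines, and 190 genes (77.2%) then passed, all in the same direction. This comparison shares the 4 NPC d3 libraries with the one above it.

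**Figure D2:**
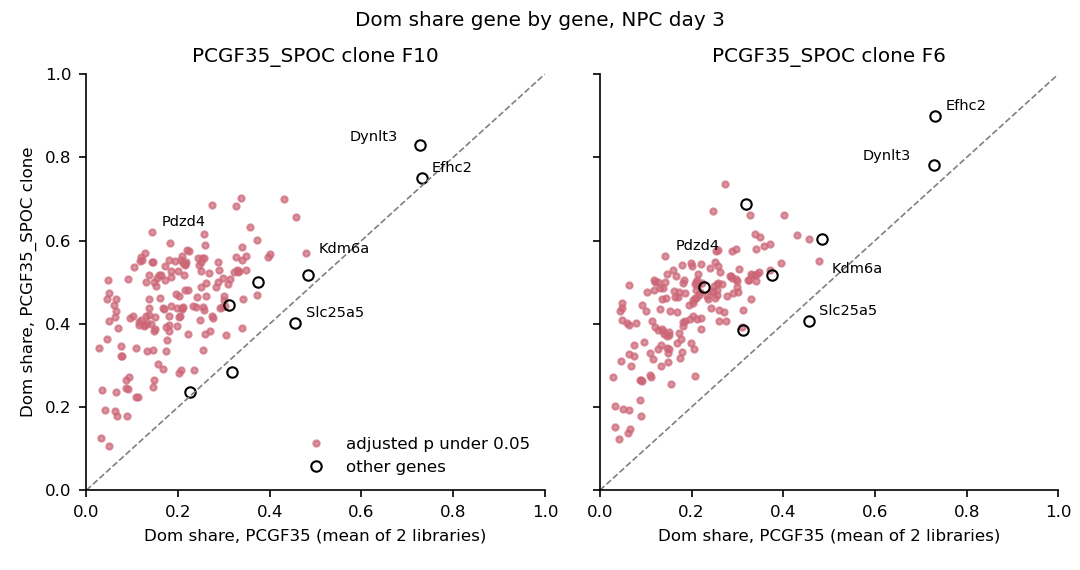
Dom share of each gene in clone F10 (left) and clone F6 (right) against the mean Dom share of the 2 PCGF35 cultures, for the 175 genes with at least 50 allelic fragments in each library; filled points passed the allelic test, open circles did not, and the dashed line marks equal shares. Nearly all points lie above the line in both clones, and Slc25a5 lies below it.

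The 10 well-covered genes with the largest rise had Dom shares of at most 0.308 in PCGF35 and of 0.431 to 0.735 in the clones. Pdzd4, a PDZ-domain gene of the nervous system (chrX:73793356-73824969, mm10), had Dom shares of 0.137 and 0.147 in PCGF35 and of 0.620 in F10 and 0.562 in F6. Its Dom RNA stood at 7.85 and 10.1 CPM in the control cultures and at 41.5 and 45.3 CPM in the clones. Its share on ES d0 had been 0.577 in PCGF35 and 0.568 in PCGF35_SPOC, so on day 3 no loss from that level was measured in the clones. Tbl1x encodes a subunit of the NCoR/SMRT corepressor complex that SPOC contacts, and is itself X-linked (chrX:77511226-77660265). It had shares of 0.128 and 0.127 in PCGF35 and of 0.571 and 0.499 in F10 and F6, an increase of the Dom-to-Cast ratio by 2.98 ± 0.17 on the log2 scale (SE, adjusted p = 1.49e-21, edgeR). Med12, a Mediator subunit gene, had 0.140 and 0.0935 in PCGF35 against 0.550 and 0.504. That both clones lay above both control cultures was a condition for choosing these 10 genes.

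Other genes of this group were almost silent in the control. Pcyt1b, a gene of phosphatidylcholine synthesis (chrX:93654862-93749948), had shares of 0.0489 and 0.0401 in PCGF35, and of 0.460 in F10 and 0.431 in F6. Itgb1bp2, an integrin-binding protein gene, had 0.0459 and 0.0505 against 0.504 and 0.438. Their Dom-to-Cast ratios increased by 4.09 ± 0.31 and 4.11 ± 0.44 (log2, SE). Kis2 had 0.0615 and 0.0360 in PCGF35 and 0.474 and 0.449 in the clones, and Zfp280c, a zinc-finger gene, 0.0986 and 0.108 against 0.535 and 0.476. Slc7a3, a cationic amino acid transporter, and Mcf2, a guanine nucleotide exchange factor, rose from a range of 0.110 to 0.130 to a range of 0.482 to 0.561 over both genes. The creatine transporter gene Slc6a8 had 0.308 and 0.239 in PCGF35 and 0.686 and 0.735 in the clones. With the telomerase component gene Dkc1 it was 1 of 2 genes (0.813%) that passed the test for a share above ES d0 in PCGF35_SPOC. The adjusted p (edgeR) was 0.0274 for Slc6a8 and 0.0473 for Dkc1, which was named after its values were seen.

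Silencing was weaker but not absent with the SPOC mutation. Against ES d0 of the same line, 58 of 246 genes (23.6%) passed the allelic test with a lower Dom share on NPC d3 in PCGF35_SPOC. In PCGF35 232 genes (94.3%) did, and 233 (94.7%) passed in either direction. All 58 were among the 232, which is 25% of the longer list. The median share of the 58 was 0.524 on ES d0 and 0.351 on NPC d3 in the clones, against 0.129 on NPC d3 in PCGF35. For 52 of the 58 the share nonetheless passed the test as higher in the clones than in PCGF35 on that day. The count of 58 comes from a fit that does not pair the ES d0 and NPC d3 libraries of a clone. It was 75 with a replicate block that pairs them, in a fit on the groups compared alone, and 31 with limma on log2 odds.

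The loss that remained was expressed as the drop of the Dom share in PCGF35_SPOC as a percentage of the drop in PCGF35, for the 170 genes with at least 50 allelic fragments in each library whose share fell by at least 0.1 in PCGF35. The median gene kept 18.8% of the drop (quartiles 5.00% and 36.4%), 15.8% in F10 and 21.0% in F6. A percentage by clone holds the change of both alleles, here and below. Summed Cast RNA on NPC d3 was 77.8% of its ES d0 level in F10 and 95.3% in F6. Summed Dom RNA was 66.1% and 74.6% of that level, so by Dom RNA alone F10 had lost more than F6. More than 50% was kept by 24 genes, and less than 10% by 60. These shares of a drop are a description of the 4 libraries and their ES d0 counterparts, without a test.

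Of the 8 deeply enough covered genes with the lowest Dom share in the clones, 6 passed the test for a share below ES d0. Eda, which encodes the TNF-family ligand ectodysplasin (chrX:99975605-100400760), was deeply covered, with at least 1431 allelic fragments in each library. Its shares were 0.0727 and 0.0549 in PCGF35 and 0.237 and 0.194 in F10 and F6, down from 0.487 on ES d0 of the clones (adjusted p = 8.62e-15). Stard8, a gene of a lipid-transfer domain protein, had 0.0460 and 0.0370 in PCGF35 and 0.192 and 0.122 in the clones. Sytl5, a synaptotagmin-like gene, had 0.0341 and 0.0659 against 0.106 and 0.196, and its difference between the lines passed the test with both clones but not without F6 (adjusted p = 0.190), without replicate 1 of PCGF35 (0.161) or with limma on the shares (0.205).

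Not every low share was a loss after induction. Atp6ap1, an accessory gene of the vacuolar proton pump, had 0.178 and 0.147 in the clones, but only 0.211 on ES d0, and its difference from that level did not pass (adjusted p = 0.428). Mtap7d3, a microtubule-associated protein gene, stood at 0.240 and 0.202 in the clones and at 0.246 on ES d0. Lancl3 had 0.191 and 0.137 against 0.277 on ES d0, and the long noncoding 4930519F16Rik, 0.204 Mb from Xist, had 0.178 and 0.177 against 0.371, both falls passing the test (adjusted p = 0.0376 and 4.11e-05). In Aff2, a transcription elongation factor gene that kept 86.5% of its drop, the shares were 0.184 and 0.229 in PCGF35 and 0.288 and 0.274 in the clones, from 0.559 on ES d0. It was named after its values were seen.

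Eda and Stard8 lie 3.06 and 4.39 Mb from Xist. Across distance, 9 of 22 genes (40.9%) between 5 and 10 Mb and 16 of 36 (44.4%) between 30 and 50 Mb passed the test for a share below ES d0 in PCGF35_SPOC. Between 10 and 30 Mb 5 of 47 (10.6%) passed it, and 23.6% over all 246. The 30 genes within 5 Mb included 9 (30%).

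**Figure D3:**
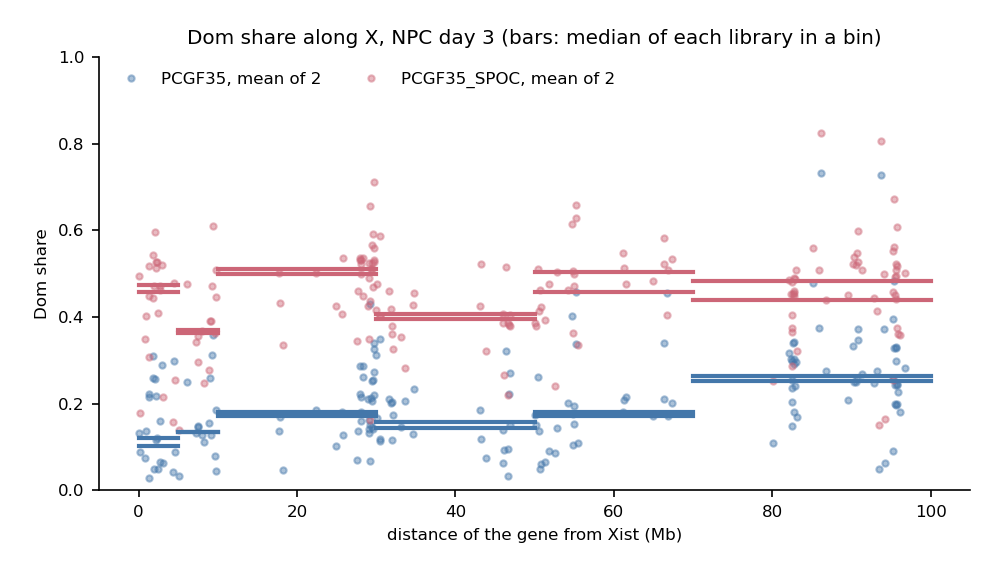
Mean Dom share of each gene in PCGF35 and PCGF35_SPOC on NPC day 3 against the distance of the gene from Xist in Mb, for the 175 genes with at least 50 allelic fragments in each library; the horizontal bars are the medians of each of the 4 libraries over all 246 genes in 6 distance bins. Blue stands for PCGF35, whose medians were 0.101 and 0.120 next to Xist and 0.264 and 0.253 in the farthest bin, and red for PCGF35_SPOC, whose medians lay between 0.362 and 0.512 with no steady order.

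In PCGF35 silencing was deepest near Xist. The median share was 0.101 and 0.120 in the control cultures over the 30 genes within 5 Mb, and 0.264 and 0.253 over the 70 genes between 70 and 100 Mb. With the SPOC mutation this order was not seen: within 5 Mb the clones had 0.474 and 0.457, and in the farthest bin 0.438 and 0.482. The median rise of the share was 0.282 within 5 Mb and 0.166 between 70 and 100 Mb. The lowest medians in the clones, 0.369 and 0.362, were those between 5 and 10 Mb. Neighbouring genes share their position, so these bins are given without a test.

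The level of a gene before induction went with how much loss it kept. Genes were ordered by their CPM per kb of gene in PCGF35 on ES d0 and cut into 3 groups of 82. Among the lowest-expressed group 29 genes (35.4%) passed the test for a share below ES d0 in PCGF35_SPOC, among the middle group 19 (23.2%) and among the highest group 10 (12.2%). The share of the drop kept had medians of 29.9%, 22.3% and 9.61%. Both clones gave this order, with 31.6%, 17.6% and 5.15% in F10 and 33.4%, 21.4% and 13.2% in F6. The median total level on NPC d3 was 16, 34.8 and 69.6 CPM in these groups, so the depth behind a share moved with them, and its part in the counts was not tested.

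Genes with a low Dom share early in the control were more often called below ES d0 in the clones. The genes were ordered by their share after 1 day of induction in ES cells of PCGF35, libraries that belong to neither group. Of the 82 with the lowest share, 32 (39.0%) passed the test for a share below ES d0 in PCGF35_SPOC. The middle 82 included 19 (23.2%) and the 82 with the highest share included 7 (8.54%). The share of the drop kept had medians of 27.1%, 15.0% and 7.68% in F10, from the lowest to the highest group. In F6 the medians were 35.5%, 13.5% and 13.8%, so the middle and highest groups did not keep this order. The median Dom shares of the lowest group were 0.106 and 0.107 in PCGF35 on NPC d3, and 0.379 and 0.380 in the clones.

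Of the 5 well-covered genes with the highest share in the control, 2 passed the test. On ES d0 of PCGF35 the shares were already 0.859 in Efhc2, 0.882 in Dynlt3 and 0.625 in Utp14a, beside 0.556 in Kdm6a and 0.459 in Suv39h1. From there to NPC d3 of PCGF35 the shares of Dynlt3, Utp14a and Kdm6a fell (adjusted p = 0.000287, 1.05e-07 and 0.00164, edgeR). Those of Efhc2 and Suv39h1 did not pass (adjusted p = 0.0570 and 0.637, edgeR). Kdm6a, the H3K27 demethylase gene known to escape X inactivation (chrX:18162666-18279358), was the most deeply covered of the 5. Its shares were 0.482 and 0.475 in PCGF35 and 0.569 and 0.551 in the clones, a rise of 0.47 ± 0.15 in log2 Dom-to-Cast ratio (SE, adjusted p = 0.00301, edgeR). Its Dom RNA was 119 and 121 CPM in the control and 139 and 156 CPM in the clones, a difference that did not pass the test of Dom counts (adjusted p = 0.241). Utp14a, a ribosome assembly gene, had 0.466 and 0.448 against 0.656 and 0.603, and passed. Efhc2, Dynlt3, a dynein light chain gene, and Suv39h1, a histone H3K9 methyltransferase gene, had shares from 0.444 to 0.80 in PCGF35 and from 0.518 to 0.899 in the clones, and none of the 3 passed (adjusted p = 0.109, 0.143 and 0.311). Efhc2 passed without F10 (adjusted p = 0.00858) and Dynlt3 without replicate 2 of PCGF35 (adjusted p = 0.0223). Slc25a5, a mitochondrial ADP/ATP carrier with close copies elsewhere in the genome, had 0.427 and 0.483 in PCGF35 and 0.402 and 0.407 in F10 and F6 (adjusted p = 0.375).

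Every functional group of X-linked genes rose for the most part. Of 37 chromatin and transcription regulators, 34 passed the allelic test with a higher share in the clones, against 85.8% of all 246 genes. Their median difference was 0.282, against 0.240 over all 246. Hdac8, a histone deacetylase, had 0.143 and 0.130 against 0.421 and 0.382, and Ogt, the O-GlcNAc transferase, 0.251 and 0.265 against 0.588 and 0.498.

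Among genes of RNA handling and translation 20 of 23 passed the allelic test with a higher share, with a median difference of 0.193. The RNA helicase Ddx3x had 0.343 and 0.322 against 0.526 and 0.517. Metabolic and mitochondrial genes passed as higher in 22 of 27 cases (median 0.273), among them the purine salvage gene Hprt with 0.257 and 0.265 against 0.497 and 0.524. Signalling and cell death genes passed as higher in 28 of 29 (median 0.225), such as the NF-kappaB pathway kinase gene Irak1 with 0.127 and 0.167 against 0.500 and 0.519. Cytoskeletal, membrane and neural genes passed as higher in 29 of 32 (median 0.245). Of the 32, 14 passed the test for a share below ES d0 in PCGF35_SPOC. That compares with 2 of the 37 regulators of chromatin and transcription and 58 of all 246, a difference between groups that was not tested. Dmd, the dystrophin gene, had 0.0487 and 0.0429 in PCGF35 and 0.362 and 0.310 in the clones, and the filamin gene Flna 0.157 and 0.146 against 0.491 and 0.381.

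A share can rise because Dom RNA is higher or because Cast RNA is lower, so each allele was also read on the scale of the whole library. Summed over the 246 genes, Dom RNA made up 1430 and 1345 CPM in the PCGF35 cultures, 3341 CPM in F10 and 4244 CPM in F6. Dom RNA was thus 2.41 times the control mean in F10 and 3.06 times in F6. Relative to ES d0, 26.5% and 24.9% of Dom RNA was left in the control cultures, 66.1% in F10 and 74.6% in F6. The Dom count passed the test in 189 of 246 genes (76.8%), all higher in the clones, and in 191 without F10 and 149 without F6. Dom CPM did not overlap between the groups in 228 genes that were higher in the clones (92.7%) and in 2 that were lower (0.813%).

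Clone F10 stood apart in its Cast RNA. The sum was 5386 and 5207 CPM in the PCGF35 cultures and 5037 CPM in F6, but 3687 CPM in F10, which is 77.8% of the ES d0 level of that clone against 95.3% in F6. On ES d0 F10 had 4741 CPM and F6 5288 CPM. The median change of the Cast counts over the 246 genes was -0.30 on the log2 scale with both clones, -0.080 without F10 and -0.60 without F6. At an adjusted p under 0.05 the edgeR test called 0 genes, and at an unadjusted p under 0.05 34 (13.8%), of which 31 (12.6%) were lower in the clones and 3 (1.22%) higher. Without F10 these were 13 lower and 9 higher, and without F6 65 lower and 2 higher. Cast CPM did not overlap in 104 genes that were lower in the clones (42.3%) and in 17 that were higher (6.91%). A lower Cast count by itself raises the Dom share of a gene. Fewer cells with a Cast X in the F10 culture and less Cast RNA per cell cannot be told apart in bulk RNA, and the part of either in the Dom shares of F10 was not tested. For a clone of this degron line with the SPOC mutation, the paper interprets raised allelic ratios in NPC samples as selection for cells that lost the Cast X. Its legend calls that clone G3, a name the paper's list of lines gives to a different line, in which part of Xist is deleted. For the degron line with the SPOC mutation that list has F6 and F10 only. The paper ties its main figure of this line to the sub-cloned F6 and shows a separate clone in that legend. By these names the separate clone is F10. Whether cells of the F10 culture had lost the Cast X was not tested here.

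**Figure D4:**
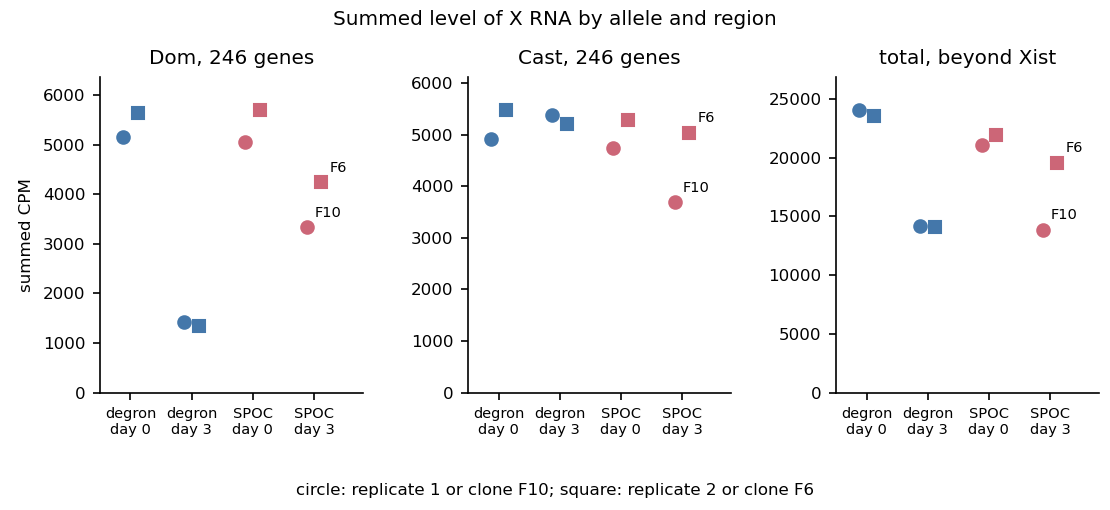
Summed CPM of Dom RNA (left) and Cast RNA (middle) over the 246 genes, and of total RNA over X genes beyond Xist (right), in each library of the degron line and of the SPOC-mutant clones on ES day 0 and NPC day 3; circles are replicate 1 or F10, squares replicate 2 or F6, and every axis starts at 0. On day 3 Dom RNA was 1430 and 1345 CPM in the degron line against 3341 (F10) and 4244 (F6), and F10 lay below F6 in all 3 panels.

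On the far side of Xist, F6 stood apart from the other 3 libraries. There 1.05% to 1.72% of allelic fragments read as Dom in the 4 libraries, so the X copies could not be told apart and only totals can be compared. X genes beyond Xist summed to 14228 and 14135 CPM in the control cultures, 13857 CPM in F10 and 19556 CPM in F6. That was 59.8% and 59.5% of the ES d0 level in PCGF35, 65.8% in F10 and 89.1% in F6. The groups overlapped in this measure.

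In the parental line, with doxycycline and NPC culture for the same 3 days, the SPOC mutation was compared in the same way in 4 other libraries. The median Dom share on NPC d3 was 0.192 and 0.178 in the WT cultures and 0.411 and 0.405 in the SPOC clones D9 and H1, a difference of 0.223 beside 0.265 in the degron line. The edgeR test called 195 genes (79.3%), all higher, and 187 genes were called in both lines, which is 88.6% of the calls in the degron line and 95.9% of those in the parental line. Summed Cast RNA was 5453 and 5347 CPM in WT and 5518 and 5495 CPM in D9 and H1, and Dom RNA 1403 and 1262 against 4138 and 4178 CPM. Total RNA of X genes beyond Xist was 13644 and 12558 CPM in WT and 18785 and 18410 CPM in D9 and H1. Up to Xist it was 20665 and 18757 CPM against 28532 and 28504 CPM. In both regions D9 and H1 lay nearer to F6 (19556 and 28148 CPM) than to F10 (13857 and 21000 CPM).

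The difference between the lines itself was tested gene by gene. It passed for 0 of 246 genes (edgeR, adjusted p under 0.05) and for 20 (8.13%) at an unadjusted p under 0.05, 17 (6.91%) with the larger rise in the degron line and 3 (1.22%) with the smaller. Limma on the shares and on log2 odds also called 0. The lowest adjusted p was that of Eda (0.0725), with shares of 0.0727 and 0.0549 and then 0.237 and 0.194 in the degron line, against means of 0.0378 in WT and 0.0706 in SPOC. Without clone F6 it passed for Eda, Zfp182 and Gm6938, and without replicate 1 of PCGF35 for Eda alone (named after their values were seen). The median of the interaction over genes was 0.19 on the log2 scale. This miss of the threshold does not show that the effect was the same in both lines.

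Total expression was tested over all chromosomes in 15180 genes. The edgeR test called 0 genes, and 832 (5.48%) had an unadjusted p under 0.05, 527 higher (3.47%) and 305 lower (2.01%). DESeq2 called 31 genes, 24 higher and 7 lower, 10 of them on the X. Read counts differed between F10 and F6 by more than between the control cultures, with a chi-square per gene of 50.8 against 11.9.

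The X chromosome was the exception to flat medians. Over the 345 tested X genes up to Xist the median log2 change was 0.32, and 289 (83.8%) had a fitted change above 0, beside 52.1% of the 14612 autosomal genes. Of these X genes 59 (17.1%) were higher and 1 lower at an unadjusted p under 0.05, against 3.47% and 2.01% over all genes. The medians of the autosomes ranged from -0.035 to 0.035. The clones differed in this measure. The median difference of F6 was 0.51 up to Xist and 0.41 beyond, whereas F10 had 0.087 and 0.0090, within its own autosomal range of 0.025 to 0.11 up to Xist and below it beyond. Without F6 the fitted medians were 0.034 and -0.046, and without F10 0.55 and 0.45.

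**Figure D5:**
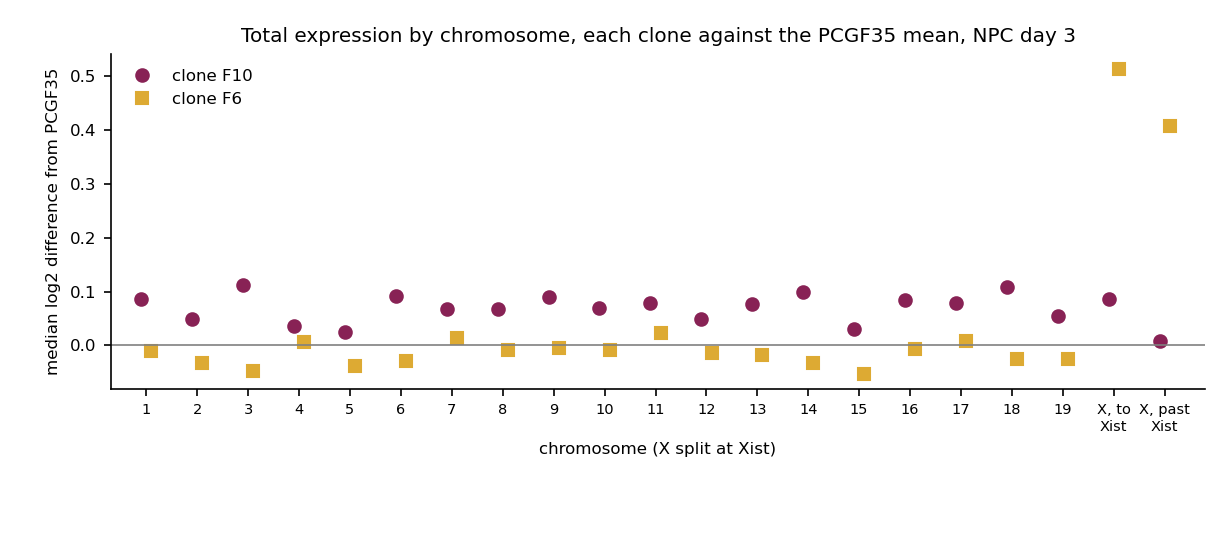
Median log2 difference of total expression, log2(CPM + 0.5), of each clone from the mean of the 2 PCGF35 cultures on NPC day 3, by chromosome, with the X split at Xist. The autosomal medians lie from 0.025 to 0.11 in F10 and from -0.052 to 0.023 in F6, and F6 reaches 0.51 and 0.41 on the X.

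Among the genes with the lowest p that were higher in the clones, none of which passed the edgeR threshold (adjusted p from 0.464 to 0.473), Firre, an X-linked long noncoding RNA gene, had 272 and 272 CPM in PCGF35, 479 CPM in F10 and 554 CPM in F6. The X-linked zinc-finger gene Zfp182 had 58.9 and 60.2 CPM against 99.7 and 115 CPM. Both also had a higher Dom share in the clones: Firre went from 0.142 and 0.147 to 0.548 and 0.461. The autosomal gene Dsp, for the junction protein desmoplakin, had 19.7 and 17.8 CPM against 40.6 and 42.6 CPM. DESeq2 called each of these 3 genes.

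In the opposite direction the lowest p values belonged to Fam3c, a secreted factor gene, with 103 and 92.3 CPM in PCGF35 and 65.8 and 61.4 CPM in the clones, and to Pou2f3, a POU factor gene, with 8.52 and 8.07 CPM against 2.86 and 2.23 CPM. Frmpd4, which lies on the X beyond Xist, had 15.8 and 16.7 CPM against 7.62 and 7.22 CPM, and Cpxm2, a carboxypeptidase-like gene, 13.9 and 12.4 CPM against 5.84 and 5.41 CPM. Their adjusted p was 0.473 to 0.511 in edgeR, and DESeq2 called all 4. In the parental line on NPC d3, Frmpd4 had 7.37 and 5.11 CPM in WT and 4.75 and 5.73 CPM in SPOC. Cpxm2 had 7.08 and 6.69 CPM against 4.52 and 5.73 CPM there. For these genes WT thus lay far below the PCGF35 cultures. Fam3c had 90.4 and 91.1 CPM in WT and 69.9 and 75.5 CPM in SPOC, and Pou2f3 4.63 and 5.64 CPM against 2.88 and 2.93 CPM.

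No marker of cell state passed the edgeR threshold, and the pluripotency lists stood apart in clone F6. The naive pluripotency list summed to 855 and 751 CPM in PCGF35, 809 CPM in F10 and 1673 CPM in F6, and its median log2 change over 15 genes was 0.78, with 14 above 0 and 4 at an unadjusted p under 0.05. Zfp42 had 217 and 196 CPM against 250 CPM in F10 and 561 CPM in F6, and Nanog 17 and 14.6 CPM against 21.1 and 55.2 CPM. The core and formative list summed to 1753 and 1774 CPM in PCGF35, 1278 CPM in F10 and 743 CPM in F6 (median -0.25, 11 of 13 below 0). Within it Dnmt3b, a de novo DNA methyltransferase, had 886 and 921 CPM against 576 and 270 CPM. Sox2 is listed at 0 in all 4 libraries, and the pluripotency factor gene Pou5f1 stood at 56.7 to 61.3 CPM in each of them, 3 days into the NPC protocol.

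Neural progenitor markers summed to 508 and 454 CPM in PCGF35 and to 825 and 807 CPM in the clones, with a median of 0.71 over 13 tested genes. The clones differed within the list. The adhesion gene Ncam1, with 277 and 223 CPM in PCGF35 and 312 CPM in F10, made up 585 of the 807 CPM in F6. Cdh2, N-cadherin, had 76.9 and 74.2 CPM against 190 CPM in F10 and 74.1 CPM in F6. Pax6 had 1.10 and 1.13 CPM against 4.19 and 4.81 CPM (adjusted p = 0.578), whereas Nes had 22.0 and 19.9 CPM against 71.8 CPM in F10 and 14.8 CPM in F6. Neuron markers summed to 259 to 322 CPM in all 4 libraries (median 0.077), and Tubb3 had 5.11 and 5.63 CPM against 11.2 and 8.51 CPM. Fibroblast markers, which would report feeder cells, summed to 19.3 and 28.5 CPM in PCGF35 and 16.3 and 12.5 CPM in the clones, with all 6 tested genes below 0. Endoderm markers summed to 20.8 to 78.2 CPM, mesoderm to 3.00 to 6.54 CPM and trophoblast to 13.2 to 25.4 CPM. Afp and Cdx2 did not exceed 0.0859 CPM and Mesp1 was at 0, but other members were present and differed between libraries. Gata4, an endoderm transcription factor gene, had 5.97 and 28.8 CPM in PCGF35, 9.33 CPM in F10 and 4.90 CPM in F6, and Gata6 3.17 and 17.7 CPM against 6.48 and 0.172 CPM, both highest in replicate 2 of PCGF35. Tfap2c had 7.85 and 6.13 CPM against 9.90 and 21.4 CPM, and the keratin gene Krt8 5.11 and 6.76 CPM against 15.1 and 2.15 CPM. In bulk RNA fewer cells of a type and less RNA per cell cannot be told apart, and the part of cell state in the Dom shares was not tested.

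The corepressor list held 9 tested genes with a median log2 change of 0.062, and 0 passed. Hdac3 had 20.2 and 22.1 CPM in PCGF35 and 24.6 and 20.8 CPM in the clones, and Ncor1 1022 and 1005 CPM against 885 and 1059 CPM. Tbl1x, whose Dom share rose, had 596 and 520 CPM against 669 and 751 CPM in total (adjusted p = 0.894). The 15 PRC1 and PCGF genes had a median of -0.085 and the 10 PRC2 genes 0.076, with Ezh2, the H3K27 methyltransferase, between 268 and 283 CPM in all 4 libraries. Jarid2, a PRC2 cofactor, had 2386 and 3333 CPM in PCGF35, 2301 CPM in F10 and 6350 CPM in F6.

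Notch target genes, which SPEN represses together with RBPJ, were low. Hes1 had 2.68 and 2.38 CPM against 4.63 and 8.76 CPM. Hey1 had 0.244 and 0.188 CPM against 0.508 and 0.859 CPM, and Nrarp 0.426 and 0.751 CPM against 1.59 and 1.55 CPM. These 3 of 10 tested genes were higher in the clones at an unadjusted p under 0.05 (edgeR), beside 3.47% of all genes. The list, which also holds receptors, ligands and Rbpj, had a median of 0.079. Of 8 X-linked regulators of pluripotency exit and ERK signalling, 7 had a fitted change above 0 (median 0.42), beside 77.4% of the 567 tested X genes. Klhl13, a ubiquitin ligase adaptor of this group, had Dom shares of 0.105 and 0.112 in PCGF35 and 0.225 and 0.277 in the clones. Its total RNA was 371 and 399 CPM against 510 and 843 CPM (adjusted p = 0.850). The 14 ERK output genes had a median of -0.026, and Etv5, an ETS factor, had 399 and 338 CPM against 246 and 239 CPM (adjusted p = 0.839).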

How the data were processed

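Chromatin-associated RNA was sequenced by the authors from 58 cultures, and the 4 NPC day 3 libraries named in the titles were compared here. Per the labels and the paper's methods, ribosomal reads were removed (Bowtie2 2.3.2), the remainder was aligned to mm10 with strain differences masked (STAR 2.4.2a) and assigned to alleles (SNPsplit), and fragments were counted by strand over whole gene bodies (featureCounts). The deposited counts are raw: total, Cast and Dom fragments per gene, 22556 genes, replicates not pooled. The authors also deposited a table of the Dom fraction of 246 X genes, whose filters were not repeated here; shares recomputed from counts differed from it by at most 5.6e-16, and no column went unmatched.

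Allele counts were tested with edgeR 4.0.16 (quasi-likelihood), with 1 term per library and 1 Dom-against-Cast term per group, unscaled between alleles, over the 16 NPC day 3 libraries, or over all 58 where ES d0 entered. Dom counts, Cast counts and total counts were tested with edgeR and TMM scaling over the 16 libraries, total counts after filterByExpr. CPM is per 1000000 counted fragments. Adjusted p is Benjamini-Hochberg at 0.05, and SE is the fitted log2 change over the root of F. Libraries of a group differed by more than sampling noise, and p-values measure the spread between these cultures and clones alone. Scripts were tested on simulated counts. Alternatives were limma 3.58.1, DESeq2 1.42.0, other gene sets, scalings and libraries in the fit, each library left out, and a replicate block for the changes since ES d0.

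Clones F10 and F6 pair ES d0 with NPC d3 (same line; their allelic deviations correlated at 0.173 over genes and total ones at 0.315), whereas the PCGF35 numbers mark repeat cultures (0.0151 and 0.0587). Named genes, with at least 50 allelic fragments in each library, were the 10 largest called rises with groups that did not overlap, the 8 lowest shares in PCGF35_SPOC and the 5 highest in PCGF35, and in total expression up to 8 called genes per direction at 5 CPM or more, filled to 4 by lowest p, with examples of fixed lists, some of them chosen after their values were seen. The members and lists were chosen with earlier results of these data known. A few genes that met the rule are not reported here.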

Additional observations from a re-analysis of the deposited data

How the results depend on the processing

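The difference of the median Dom share stayed between 0.237 and 0.275 over all 9 alternatives, and between 0.255 and 0.275 when each library was left out. The count of genes with a different Dom share (211) was 190 to 206 with a library left out, that of the change since ES d0 (190) 172 to 184, that of genes below ES d0 in PCGF35_SPOC (58) 42 to 55 and in PCGF35 (232) 217 to 228. A minimum of 200 allelic fragments left fewer genes to test and gave 99 of 99, 96 of 97, 27 of 100 and 101 of 101 for these counts, and limma on log2 odds gave 31 in place of 58, for which the cause was not tested. With the replicate block the counts below ES d0 were 75 in PCGF35_SPOC and 234 in PCGF35, which moved neither by over 1.5 times. The count of genes whose effect differed between the lines was 0 to 3 with a library left out: 3 without clone F6 and 1 without PCGF35 replicate 1. Dom counts gave 148 to 191 calls with a library left out, and Cast counts 0 throughout. Cast counts gave 1 call, Hs6st2, when only the 4 libraries were fitted, and DESeq2 called 31 genes in total expression where edgeR gave 0 in every other setting run; the causes were not tested. The median change of total expression beyond Xist was 0.24, and -0.046 to 0.45 with a library left out, below 0 without clone F6. That of Pcgf5 was -0.18, and -0.47 to 0.19 with a library left out, above 0 without PCGF35 replicate 2. Of the 217 alternatives for named genes by allele 211 left the call in place. Only 2 clones and a median of 149 to 170 allelic fragments per gene limit what can be called, above all for low genes.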

Other observations

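Gene groups not described above were read in the same total counts, and none of their members passed the edgeR threshold. The 9 ATF4 stress genes had a median log2 change of 0.42, with 8 above 0. Asns, asparagine synthetase, had 122 and 130 CPM in PCGF35 and 172 and 213 CPM in the clones, and Ddit3, the stress factor CHOP, 5.78 and 6.38 CPM against 10.3 and 8.42 CPM. The 8 genes of p53 and apoptosis had a median of 0.054, and Cdkn1a, the p21 gene, had 33.0 and 36.9 CPM against 25.7 and 39.6 CPM. The 8 DNA methylation writers and erasers had a median of -0.15, and Dnmt3a had 163 and 163 CPM against 113 and 96.2 CPM. Of the 13 X inactivation centre and cofactor genes 7 were above 0 (median 0.027), and Tsix, the antisense partner of Xist, had 224 and 206 CPM in PCGF35, 125 CPM in F10 and 222 CPM in F6.

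The Cast RNA of clone F10 was low in its other NPC libraries as well. With dTAG-13 on day 3 it had 3420 CPM of Cast RNA over the 246 genes and a median Dom share of 0.557, and F6 had 4976 CPM and 0.503. On day 6 Cast RNA was 4037 CPM in F10 and 4972 CPM in F6 without dTAG-13, and 2646 CPM and 4977 CPM with it. In ES cells on day 1 the values were 4768 CPM in F10 and 5085 CPM in F6 without dTAG-13. The cause was not tested.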
